A study of Saccharomyces cerevisiae with 4 samples.

Results

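The 10 genes described here encode the enzymes that make and break down glycogen in the budding yeast Saccharomyces cerevisiae. They were taken by name from the annotation of the array's probe sets: GSY1, GSY2, GLG1, GLG2 and GLC3 for synthesis, GPH1 and GDB1 for breakdown, and PGM1, PGM2 and UGP1 for the supply of the precursor. All 10 were measured, among 5449 yeast genes in all, and each had 1 probe set. No measured value entered the choice of genes, but it was made with earlier results of these arrays known.

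Expression was measured on Affymetrix arrays in 4 cultures, 2 exposed to 0.4 mM allyl alcohol for 3 h and 2 left untreated. Both groups were the haploid strain W1588-4c of mating type a, with the alleles ade2-1 and can1-100, his3-11,15 and leu2-3, 112, trp1-1, ura3-1 and a functional RAD5+. Cells grew at 30 °C in synthetic complete medium with 2% glucose to an optical density of about 1. The labels describe the arrays of a group as independent experiments and give no matching time for the untreated cultures, so a difference in growth time could not be told apart from treatment.

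Allyl alcohol is oxidised by yeast alcohol dehydrogenases to acrolein, a reactive aldehyde, and the comparison asks which transcripts differ after that exposure. Glycogen is a branched polymer of glucose that yeast stores when nutrients run short or cells are stressed, and draws on later. Its synthesis starts from glucose 6-phosphate, which phosphoglucomutase turns into glucose 1-phosphate and UDP-glucose pyrophosphorylase into UDP-glucose. Glycogenin primes a chain, glycogen synthase extends it, and the branching enzyme adds branches. Glycogen phosphorylase and the debranching enzyme release the glucose again. In growing yeast protein kinase A holds storage down and the kinase Snf1 favours it, and stress factors switch on several of these genes.

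Each value is an RMA signal on the log2 scale, so a difference of 1 is 2-fold. All members lay at least 3.03 above the background of their array, which was 5.33 and 5.64 on the allyl alcohol arrays and 5.58 and 5.28 on the untreated arrays, replicates 1 and 2 in turn. The arrays did not group by label. Over all genes Pearson's r, a description across genes, was 0.740 between the allyl alcohol arrays and 0.757 between the untreated arrays. It was 0.996 between the arrays labelled allyl alcohol replicate 2 and untreated replicate 1, and 0.991 between those labelled allyl alcohol replicate 1 and untreated replicate 2. Arrays are named by their labels throughout, every direction is that of the labels, and values without each array are given below. Whether labels were exchanged between cultures was not tested. If they were, differences given here as lying inside a label would lie between treatments, and differences between label means would not measure the treatment. The 6 mating type a genes checked had signals of 9.25 to 13.5 on all arrays. The 3 alpha-specific genes had 6.41 to 10.4, also above background, and 4 of the 6 a-specific genes were at least 2-fold apart between the arrays of both labels.

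By label, no glycogen gene differed beyond the spread between arrays. In limma 0 of 5449 genes were called, a share of 0%, and 0 genes had an unadjusted p under 0.05. The smallest unadjusted p over all genes in limma was 0.22. Arrays of the same label lay far apart, which widens the standard errors. A count of 0 is therefore no evidence that transcripts were unchanged. All 10 members had an adjusted p of 1 in limma, and the smallest unadjusted p among them was 0.595, for GDB1. The members' differences lay between -0.23 and 0.057, with a median of -0.12 against -0.025 over all genes. The mean was lower in allyl alcohol for 8 of 10 members, where 58% of all genes were lower. The labels overlapped for all 10 members, as for most genes: 1.89% of all genes lay entirely higher and 3.34% entirely lower in allyl alcohol. With 2 arrays against 2, and arrays of a label far apart, the 95% intervals were wide. Their median half-width was 1.68 for the members, so several-fold changes in either direction were not excluded for the most variable of them.

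**Figure D1:**
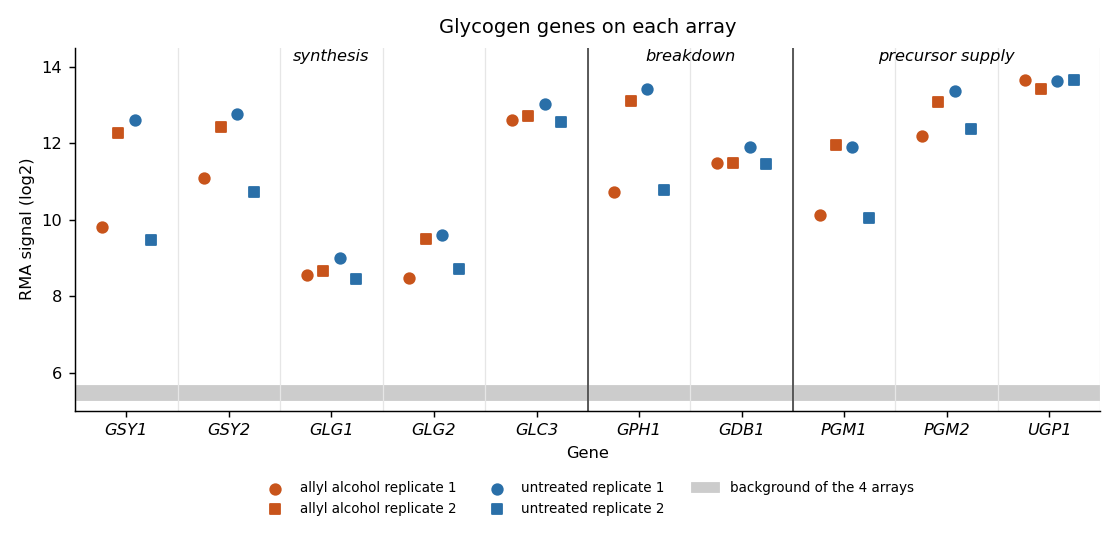
RMA signal (log2, vertical axis) of the 10 glycogen genes on each of the 4 arrays; each point is 1 array and the grey band spans the background of the arrays. GSY1, GSY2, GPH1 and PGM1 are high on allyl alcohol replicate 2 and untreated replicate 1 and low on the other arrays, while UGP1 lies between 13.42 and 13.66 on all 4.

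Glycogen synthase, which adds glucose from UDP-glucose to the chain, is made by GSY2, the main isoform, and its paralogue GSY1. GSY1 had log2 signals of 9.81 and 12.27 on allyl alcohol replicates 1 and 2, and 12.62 and 9.46 on untreated replicates 1 and 2. Each label thus joined a high and a low array, and the means were 11.04 ± 1.74 in allyl alcohol and 11.04 ± 2.23 in untreated cultures (SD, n = 2 each). The difference of these means was -0.0035, with a 95% interval of -4.32 to 4.31. GSY2 had 11.08 and 12.44 on the allyl alcohol arrays, against 12.76 and 10.72 on the untreated arrays. Its means were 11.76 ± 0.96 and 11.74 ± 1.44 (SD, n = 2 each), in that order, and the difference was 0.018 (95% interval -2.72 to 2.75). The same arrays were high for both synthase genes.

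The glycogenins Glg1 and Glg2 attach glucose to themselves and so start the chain that the synthase extends. GLG1 had log2 signals of 8.56 and 8.66 on allyl alcohol replicates 1 and 2, and 8.998 and 8.44 on untreated replicates 1 and 2. The allyl alcohol arrays lay between the untreated ones, and the difference was -0.11 (95% interval -1.18 to 0.96). GLG2 had 8.48 and 9.51 on the allyl alcohol arrays, against 9.60 and 8.71 on the untreated arrays, a difference of -0.16 (-1.86 to 1.53). GLG2 was high on the same arrays as the synthase genes, allyl alcohol replicate 2 and untreated replicate 1, by a smaller amount.

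GLC3 encodes the branching enzyme, which moves a stretch of chain to a new branch point. Its log2 signals were 12.61 and 12.71 on allyl alcohol replicates 1 and 2, and 13.02 and 12.56 on untreated replicates 1 and 2. Untreated replicate 1 was the highest array and the other 3 lay within 0.15 of each other. The difference between labels was -0.13 (95% interval -1.15 to 0.89).

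On the breakdown side, GPH1 encodes glycogen phosphorylase, which releases glucose 1-phosphate from the chain ends. It had log2 signals of 10.72 and 13.10 on allyl alcohol replicates 1 and 2, and 13.41 and 10.77 on untreated replicates 1 and 2. The high arrays were again allyl alcohol replicate 2 and untreated replicate 1. The means were 11.91 ± 1.68 in allyl alcohol and 12.09 ± 1.87 in untreated cultures (SD, n = 2 each), a difference of -0.18 (95% interval -4.04 to 3.69). GDB1, which encodes the debranching enzyme, had 11.47 and 11.49 on the allyl alcohol arrays, against 11.91 and 11.46 on the untreated arrays. Like GLC3, it stood apart on untreated replicate 1 alone, and its difference was -0.20 (-1.22 to 0.81).

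The phosphoglucomutases Pgm1 and Pgm2 interconvert glucose 6-phosphate and glucose 1-phosphate, so they serve both directions of the pathway, and Pgm2 is the main isoform. PGM1 had log2 signals of 10.12 and 11.94 on allyl alcohol replicates 1 and 2, and 11.91 and 10.04 on untreated replicates 1 and 2. The difference was 0.057 (95% interval -2.84 to 2.95), between a high and a low array in each label. PGM2 had 12.20 and 13.08 on the allyl alcohol arrays, against 13.37 and 12.36 on the untreated arrays, a difference of -0.23 (-1.90 to 1.44). UGP1, which encodes the UDP-glucose pyrophosphorylase that also feeds trehalose and cell wall glucan, had 13.66 and 13.42 on the allyl alcohol arrays, against 13.64 and 13.65 on the untreated arrays. It varied least of the 10, with a range of 0.24 over the 4 arrays and a difference of -0.10 (-1.03 to 0.82).

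The sign of the difference depended on which replicate number was compared. Allyl alcohol replicate 1 was at least 2-fold lower than untreated replicate 1 for 6 of 10 members, where 18.8% of all genes were. These were GSY1, GSY2, GLG2, GPH1, PGM1 and PGM2, with log2 differences of -2.81 for GSY1 and -2.69 for GPH1 at the far end. Allyl alcohol replicate 2 was at least 2-fold higher than untreated replicate 2 for 4 of 10 members, where 18.3% of all genes were. These were GSY1 (2.80), GPH1 (2.34), PGM1 (1.90) and GSY2 (1.71). Both comparisons set 1 array against 1 array and carry no test.

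**Figure D2:**
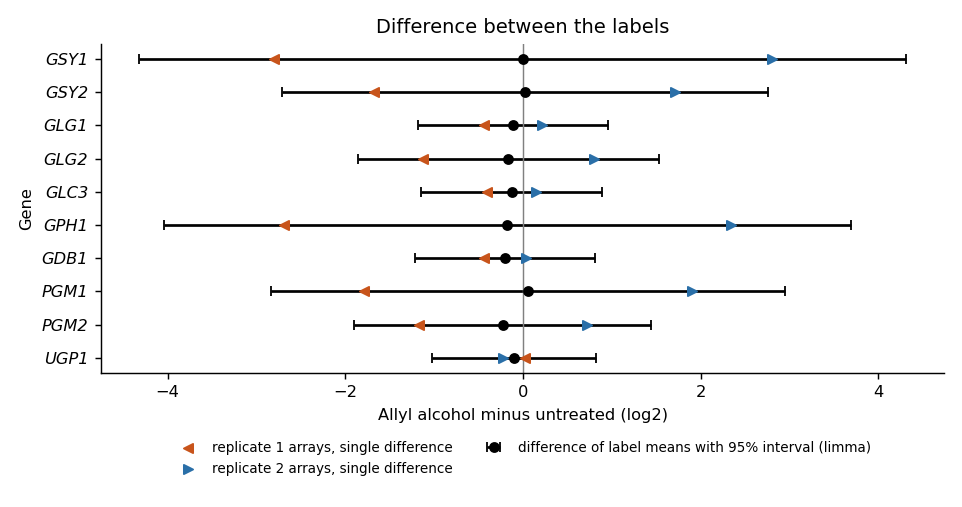
Allyl alcohol minus untreated (log2, horizontal axis) for each glycogen gene; black points are differences of the label means with the 95% interval from limma (2 arrays per label), and triangles are the single differences of same-numbered arrays. The means lie between -0.23 and 0.057 while the single differences of GSY1 lie at -2.81 and 2.80.

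As group means, the synthesis and breakdown genes were high and low on the same arrays. Each gene was taken relative to its own mean over the 4 arrays, because signals of different probe sets are not comparable. On this scale the 5 synthesis genes averaged -0.54 and 0.46 on allyl alcohol replicates 1 and 2, and 0.75 and -0.67 on untreated replicates 1 and 2. The 2 breakdown genes averaged -0.70 and 0.51 on the allyl alcohol arrays, against 0.87 and -0.68 on the untreated arrays. The 3 supply genes averaged -0.46 and 0.37 on the allyl alcohol arrays, against 0.52 and -0.43 on the untreated arrays. The means of all 3 groups were thus high on the same arrays, and neither side's mean was high where the other was low. Not every gene followed its group. On allyl alcohol replicate 2, GLG1, GLC3, GDB1 and UGP1 lay at or below their own means, so the breakdown mean there was raised by GPH1 alone.

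Set against each other, breakdown minus synthesis was -0.15 and 0.041 on allyl alcohol replicates 1 and 2, and 0.12 and -0.0082 on untreated replicates 1 and 2. Its mean was -0.056 ± 0.14 in allyl alcohol and 0.056 ± 0.091 in untreated cultures (SD, n = 2 each). The difference of -0.11 was smaller than the pooled SD between arrays of a label, 0.12. Between labels the synthesis genes had a mean difference of -0.078 and the breakdown genes one of -0.19. Leaving out allyl alcohol replicate 1 gave 0.43 for synthesis and 0.41 for breakdown, and leaving out untreated replicate 1 gave 0.63 and 0.58. Leaving out allyl alcohol replicate 2 gave -0.58 and -0.79, and leaving out untreated replicate 2 gave -0.79 and -0.96. Either sign of the synthesis mean and of the breakdown mean could therefore be had by leaving out 1 array. Breakdown minus synthesis stayed below 0, from -0.21 to -0.015, and was not tested.

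**Figure D3:**
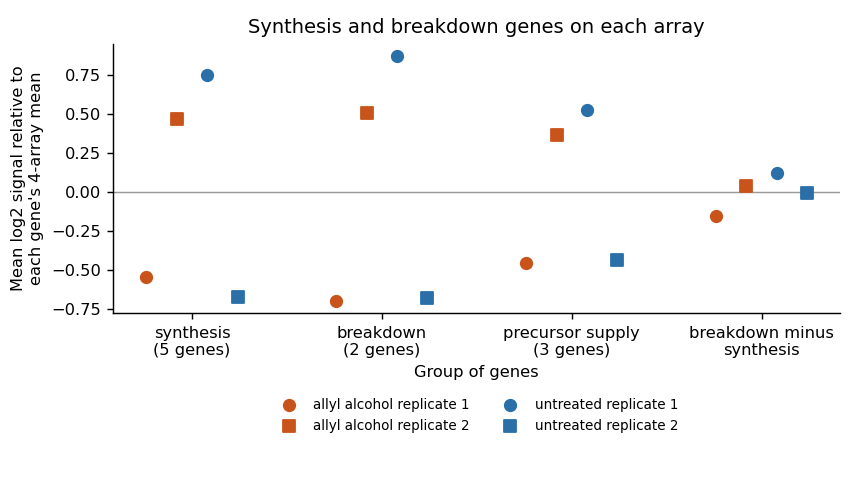
Mean log2 signal of each group of glycogen genes on each array, relative to the 4-array mean of every gene (vertical axis), with breakdown minus synthesis at the right. The means of synthesis, breakdown and supply genes are above 0 on allyl alcohol replicate 2 and untreated replicate 1 and below 0 on the other arrays. Breakdown minus synthesis stays between -0.15 and 0.12.

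Arrays of the same label also stood far apart for several glycogen genes. Differences inside a label are given as allyl alcohol replicate 2 minus replicate 1 and untreated replicate 1 minus replicate 2, an order of subtraction chosen with the values known. In this order 4 of 10 members were at least 2-fold higher in both labels, where 15.8% of all genes were. At any size 9 of 10 were higher, where 46.2% of all genes were. None was at least 2-fold lower in both labels, where 18.6% of all genes were. The 4 were GSY1, with 5.49-fold inside allyl alcohol and 8.90-fold inside untreated, GPH1 with 5.21-fold and 6.25-fold, PGM1 with 3.54-fold and 3.64-fold, and GSY2 with 2.55-fold and 4.11-fold. GLG2, with 2.04-fold and 1.86-fold, and PGM2, with 1.84-fold and 2.01-fold, lay on either side of the 2-fold line. At 1.5-fold in both labels 6 of 10 members were higher, where 26.4% of all genes were. No test was made of these single-array differences, and the 2 labels are not separate evidence, since their arrays lie close to each other in crossed order.

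GLC3, GDB1 and GLG1 varied less, each with its highest signal on the single array untreated replicate 1. Inside untreated they differed by 0.46, 0.45 and 0.55 on the log2 scale, and inside allyl alcohol by only 0.094, 0.023 and 0.11. Their profiles over the 4 arrays lay within a root mean square distance of 0.066 of each other, but genes that vary little lie close by this measure. UGP1 stood alone, with -0.24 inside allyl alcohol and -0.0090 inside untreated. Each side of the pathway held more and less variable genes, GSY1 and GSY2 beside GLC3 in synthesis and GPH1 beside GDB1 in breakdown. The members did not fall into separate classes. GLG2 lay 0.35 from GLG1 and 0.43 from GSY2, and PGM2 lay 0.32 from GLG1 and 0.42 from GSY2. The signed median over the 10 members was 0.95 inside either label, against 0.0011 inside allyl alcohol and -0.035 inside untreated over all genes. All genes differed in both directions, so their signed median does not give the size. Without regard to sign, the median was 0.95 for the members inside either label. Over all genes it was 0.81 inside allyl alcohol and 0.75 inside untreated.

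**Figure D4:**
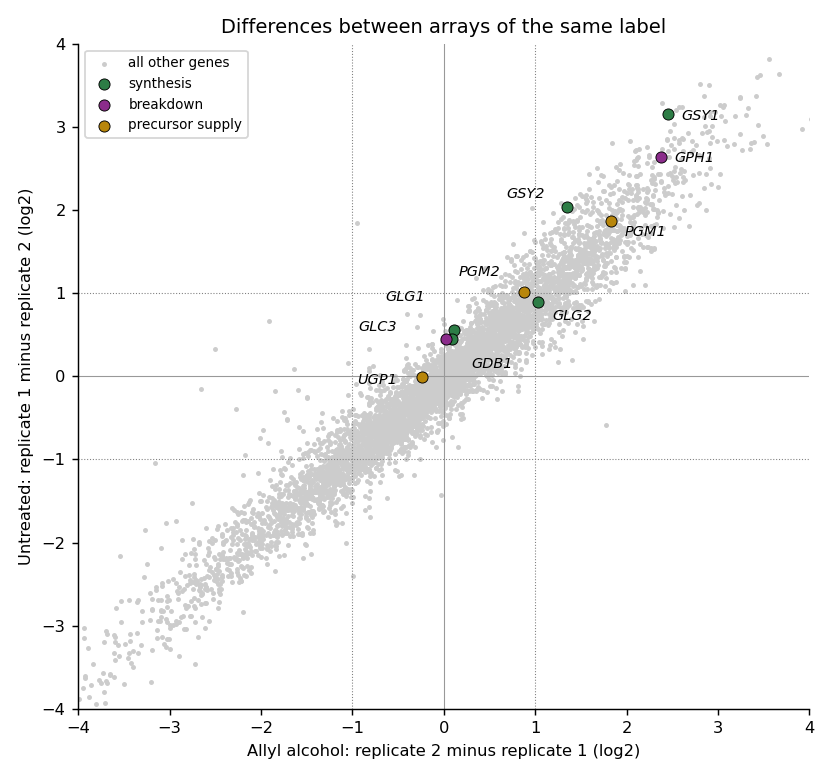
Difference between the allyl alcohol arrays (replicate 2 minus 1, horizontal) against that between the untreated arrays (replicate 1 minus 2, vertical), both log2; grey points are the other genes, 61 of which lie beyond the plotted range of 4, and dotted lines mark 2-fold. GSY1, GPH1, PGM1 and GSY2 lie past both 2-fold lines, and GLC3, GDB1, GLG1 and UGP1 lie near 0.

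Paralogues of the pathway differed in size but not in order in both labels. The log2 difference of GSY1 exceeded that of GSY2 by 1.10 inside allyl alcohol and 1.11 inside untreated, and that of PGM1 exceeded that of PGM2 by 0.95 and 0.86. In both pairs it was the minor isoform that differed more. GLG1 differed less than GLG2, by 0.92 inside allyl alcohol and 0.34 inside untreated. These enzymes are related in sequence, and whether their probes share signal was not tested.

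A smaller shift was seen between the arrays that lay closest. On allyl alcohol replicate 2 the signal was lower than on untreated replicate 1 for 9 of 10 members, where 53.1% of all genes were lower. The log2 differences lay between -0.42, for GDB1, and 0.037, for PGM1, with a median of -0.31 against -0.0092 over all genes. On allyl alcohol replicate 1 the signal was lower than on untreated replicate 2 for 3 of 10 members, where 56.7% of all genes were lower, with a median of 0.032. GSY1 and GSY2 were 0.35 and 0.36 higher there, and 0.35 and 0.33 lower in the other pair. The shift was therefore not shared by the pairs, and each is 1 array against 1 array.

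Genes for proteins that control glycogen enzymes differed in both directions inside the labels. The list of 12 holds the phosphatase Glc7 and its targeting subunits, and the kinase Pho85 and its cyclins. It also holds Glc8 and Igd1, the latter an inhibitor of the debranching enzyme. Limma called 0 of 12 between labels, with a median difference of -0.075. Inside both labels 1 of 12 was at least 2-fold higher and 1 lower in the order used above, where 15.8% and 18.6% of all genes were. The higher one was PCL6, a cyclin of Pho85, with log2 differences of 1.31 inside allyl alcohol and 1.12 inside untreated. The lower one was PIG1, a putative Glc7-targeting subunit, with signals of 10.06 and 7.64 on allyl alcohol replicates 1 and 2, and 7.83 and 9.998 on untreated replicates 1 and 2. PIG1 was thus low on the arrays where GSY1, GSY2 and GPH1 were high.

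Among 14 upstream signalling genes limma called 0 between labels, with a median difference of -0.10. Inside both labels 1 of 14 was at least 2-fold higher and 2 lower, where 15.8% and 18.6% of all genes were. SIP2, a beta subunit of the Snf1 kinase, was higher in the same order as the synthase genes, by 1.77 inside allyl alcohol and 1.69 inside untreated on the log2 scale. RIM15, a kinase held inactive by protein kinase A, had log2 differences of -2.46 and -2.14 in this order, and PSK2, a PAS kinase that phosphorylates Ugp1 and glycogen synthase, had -1.82 and -1.99. SNF1 itself differed by 0.60 and 0.39, under 2-fold.

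Genes that bring glucose to the level of hexose phosphate, or act on related sugars, included 3 of 7 that were at least 2-fold higher in both labels and 0 lower, where 15.8% and 18.6% of all genes were. HXK1, a hexokinase, differed by 1.28 inside allyl alcohol and 2.09 inside untreated, and GLK1, glucokinase, by 1.15 and 1.24. PGM3, a phosphoribomutase gene related to the phosphoglucomutases and listed as PRM15 in RefSeq, differed by 2.30 and 2.02. SGA1, the glucoamylase of sporulating cells, lay between 8.59 and 8.77 on all 4 arrays. Limma called 0 of the 7 between labels, with a median difference of -0.080.

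The 7 trehalose genes serve the synthesis and breakdown of a sugar made from the same UDP-glucose. They are set beside the glycogen genes without a test of the difference. Inside both labels 0 of 7 were at least 2-fold higher and 1 lower, where 15.8% and 18.6% of all genes were, and the medians were -0.14 inside allyl alcohol and -0.12 inside untreated. The lower one was ATH1, the acid trehalase, with -2.32 and -1.58. The synthase gene TPS1 lay between 13.36 and 13.53 on all arrays, a narrow range like that of UGP1. Between labels the median was -0.11 for trehalose genes and -0.12 for glycogen genes, and limma called 0 of 7. NTH1, a neutral trehalase gene named here after its values were seen, was the 1 gene of these lists whose labels did not overlap. Of all genes, 3.34% lay entirely lower and 1.89% entirely higher in allyl alcohol. NTH1 had 12.27 and 12.17 on allyl alcohol replicates 1 and 2, and 12.37 and 12.49 on untreated replicates 1 and 2. The difference was -0.21, with an unadjusted p of 0.54 in limma. The standard error behind that p was 0.32, drawn up by the variance over all genes. The SDs of NTH1 itself were 0.068 in allyl alcohol and 0.087 in untreated cultures.

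**Figure D5:**
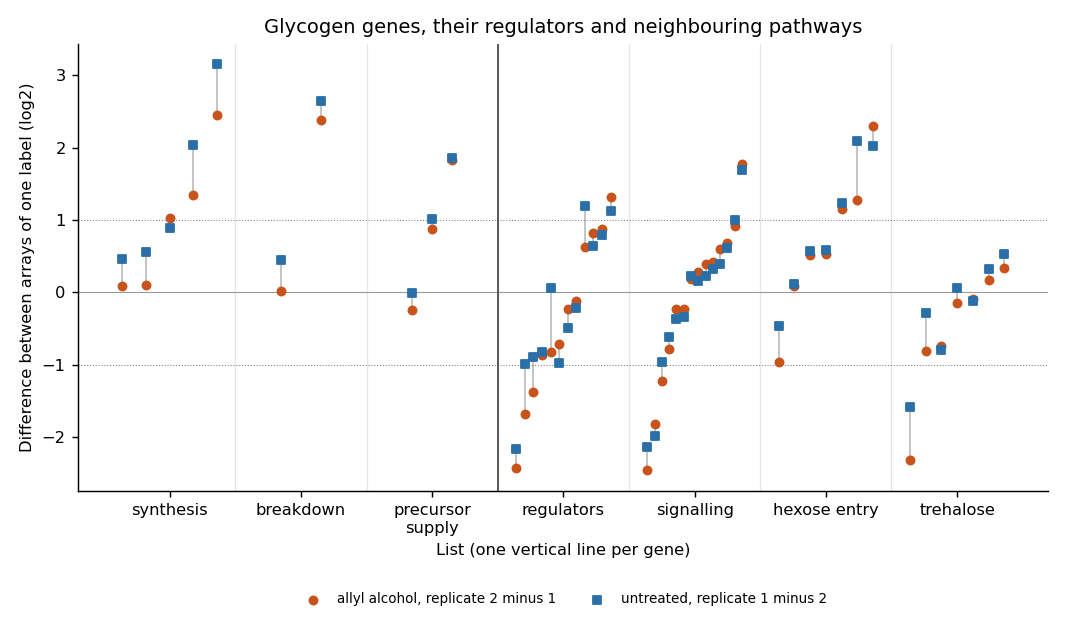
Log2 differences between arrays of one label (vertical axis) for the glycogen genes by role, left of the solid line, and for 4 lists of related genes; a grey line joins the allyl alcohol and untreated values of a gene, and dotted lines mark 2-fold. Most synthesis, breakdown and supply genes lie at or above 0, and so do 6 of 7 hexose entry genes in both labels. Regulators, signalling genes and trehalose genes spread to both sides. Of all genes, 46.2% were higher in both labels in this order.

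Genes outside the pathway with profiles most like those of GSY2, the main synthase gene, and GPH1 were also sought. Likeness was measured as the root mean square distance between log2 values over the 4 arrays, each relative to the gene's mean. The 5 nearest to GSY2 were RPL31A, which encodes a ribosomal protein, TEC1, a transcription factor of filamentous growth, XKS1, xylulokinase, FMP41 and SAY1, at 0.071 to 0.093. The 5 nearest to GPH1 were ILM1, PHR1, the DNA photolyase gene, TMN2, HRD3 and ICY1, at 0.082 to 0.10. Within the pathway GSY1 lay 0.20 from GPH1 and PGM1 lay 0.18 from GSY2. With 4 arrays these distances describe the arrays and give no measure of chance.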

How the data were processed

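The deposited values are RMA signals on a log2 scale, 1 for each probe set and array; per the submitters' processing notes, the tools were RMA and Affymetrix Expression Console, with versions and settings not given in the sources used here. A log2 scale was read from the range of 2.78 to 14.75. Because RMA normalizes between arrays, it partly removes changes shared by most mRNAs.

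Of 10928 probe sets, 5498 matched a gene of the RefSeq table of assembly R64 through the platform annotation, and gave 5449 genes; for the 47 with several probe sets, the one with the highest mean over the 4 arrays was used. Background was the 95th percentile of the 1746 probe sets named outside that table. Groups follow the labels. The comparison of the labels used limma 3.58.1 in R 4.3.3 (lmFit, eBayes, two-sided, no block, Benjamini-Hochberg over all genes, threshold 0.05). Nothing beyond the label says that the arrays of a group came from separate cultures, so p-values measure a spread between arrays. The number of arrays limits the precision. The eBayes step draws each gene's variance towards a value taken from all genes. For genes with little spread, p and interval therefore mostly reflect the spread over all genes. UGP1 had SDs of 0.17 in allyl alcohol and 0.0064 in untreated cultures, but a standard error of 0.32. An exact permutation test of 2 against 2 arrays could not reach 0.05 and was not used. Same-numbered arrays deviated in opposite directions: the correlation across genes of their deviations from the label means was -0.973. With 2 arrays per label, arrays of opposite number therefore deviated together.

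The members and the lists of related genes were chosen with earlier results of these arrays known. Named beyond the members were list genes that differed at least 2-fold inside both labels and the 5 genes nearest to GSY2 and to GPH1; those named for other reasons (the mating type check, SNF1, SGA1, TPS1 and NTH1) were chosen after their values were seen or as background. Alternatives covered the model, the block, the filter, the probe set, the normalization, the features tested and each array left out.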

Additional observations from a re-analysis of the deposited data

How the results depend on the processing

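No gene was called in limma under any setting run, including the replicate block (0 genes, 0 members), an intensity trend, 2 other normalizations and each array left out. With the block crossed, chosen after seeing the data, 0 genes were called and 188 had an unadjusted p under 0.05. When all 10715 probe sets without controls were tested, 0 were called and 8 had an unadjusted p under 0.05. In every other setting 0 did. The difference of GSY1 changed sign when the genes were quantile normalized anew (0.0051) or each array was centred on its median (0.012). Leaving out 1 array turned the sign of every member under at least 1 choice of array. The log2 differences then ran from -1.58 to 1.57 for GSY1, -1.002 to 1.04 for GSY2, -0.39 to 0.17 for GLG1, -0.68 to 0.35 for GLG2, -0.36 to 0.099 for GLC3, -1.50 to 1.15 for GPH1, -0.43 to 0.022 for GDB1, -0.88 to 0.99 for PGM1, -0.73 to 0.28 for PGM2 and -0.22 to 0.015 for UGP1. A label left with 1 array was assumed to vary like the other. Breakdown minus synthesis ranged from -0.21 to -0.015 across these omissions. The count of 4 members at least 2-fold higher inside both labels was 4 under each other normalization and 6 at 1.5-fold. With 2 arrays per label, differences within the intervals given were not excluded. The intervals are unadjusted, whereas a call needed an adjusted p under 0.05 over all genes. They therefore do not give the smallest difference that could have been called.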
